A study of Mus musculus with 30 samples.

Results

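The change between 6 and 24 h of lipopolysaccharide (LPS) was followed in control bone marrow-derived dendritic cells: 5 arrays labelled LPS 24 h against 5 labelled LPS 6 h, chosen by their titles, of 30 arrays in the series. The cells were grown from bone marrow of C57BL/6 mice that carried the CD11c-Cre transgene and no floxed allele, so the Cre recombinase under the CD11c promoter is shared by all groups. After stimulation, CD11c+ cells were taken with magnetic beads. The remaining 20 arrays were 5 of unstimulated control cells and 15 of cells from mice with CD11c-Cre and floxed Irf4 (KO), unstimulated or after 6 or 24 h of LPS, with 5 replicates in each group. Neither the LPS dose nor the age of the mice is given in the sources used here. The labels call the replicates biological but do not tie them to separate mice or cultures. Each p-value therefore reflects only how these arrays vary, which may be technical. Each array set Cy5-labelled sample RNA against Cy3-labelled universal mouse reference RNA. A level below is the log2 ratio of sample to that reference, and a difference is 24 h minus 6 h on the same log2 scale.

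LPS is the ligand of Toll-like receptor 4 (TLR4), which signals through the adaptors MyD88 and TRIF to NF-kB, MAP kinases and interferon regulatory factors. Transcripts of cytokines and chemokines usually appear early and are often short-lived, interferon-beta released by the cells drives a second set of interferon-stimulated genes, and inhibitors such as Tnfaip3, Socs3 and the dual-specificity phosphatases limit the signal. Dendritic cells also mature in this time: they raise costimulatory molecules and change the chemokine receptors that guide them to lymph nodes.

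The arrays labelled LPS 24 h replicate 2 and LPS 6 h replicate 3 stood apart from their groups. Over 767 genes that LPS changed in KO cells at 24 h, the slope of an array's own response on the KO response was 0.0991 for 24 h replicate 2 and 0.605 to 0.836 for the other 24 h arrays. Over 1124 such genes at 6 h it was -0.0334 for 6 h replicate 3 and 0.663 to 0.878 for the others. Both arrays were nearest, of all arrays, to unstimulated control replicate 1, and both lay on slide 9, which held no other array of the series and was scanned on another day than the rest. Slide, scan day and the difference from their groups cannot be told apart for these arrays. Genes called in either fit are given with all arrays and without these 2 arrays. Among the remaining arrays, replicates 1 and 3 and replicates 4 and 5 at 24 h, and replicates 1 and 2 and replicates 4 and 5 at 6 h, were close pairs: the SD of the difference between the arrays of a pair was 0.184 to 0.289, against 0.571 to 0.942 for the other 16 of 20 pairs within these groups, and 1.27 to 1.82 times that of repeated spots on 1 array. When each close pair was averaged and counted as 1 sample, a choice made after seeing the data, the groups had 3 samples each and the number of genes called was 0 in limma, with 424 higher and 259 lower at an unadjusted p under 0.05. Leaving out the 2 arrays as well gave 3 genes higher and 2 lower. The scanner marked between 18465 and 22850 of the 41174 probes on an array as well above background in Cy5 (44.8 to 55.5%), the median Cy5 signal was 101 to 147, and the number of arrays limits the precision.

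With all arrays, 371 of 11263 genes tested were higher at 24 h than at 6 h (3.29%) and 246 were lower (2.18%), together 617 (5.48%), at an adjusted p under 0.05 in limma. Of these, 75 and 55 differed at least 2-fold, and 1158 and 911 genes passed an unadjusted p of 0.05. Without the 2 arrays 606 genes were higher (5.38%) and 465 lower (4.13%), together 1071 (9.51%), of which 134 and 127 differed at least 2-fold. This fit kept 307 of the 371 and 209 of the 246 genes, and 0 turned sign. All 5 arrays at 24 h lay above all 5 at 6 h for 266 genes (2.36%) and below them for 188 (1.67%); without the 2 arrays, the 4 at 24 h lay above the 4 at 6 h for 916 genes (8.13%) and below for 815 (7.24%). Against unstimulated cells, 805 genes were higher (7.15%) and 506 lower (4.49%) at 6 h, and 814 higher (7.23%) and 571 lower (5.07%) at 24 h. The median difference over all genes was -0.0159 with all arrays and -0.0146 without the 2.

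Single arrays decided several of these calls. Of 51 named genes called with all arrays, 29 were called in each of the 10 fits that left out 1 of these arrays, and 22 were not called in at least 1. The arrays of 6 h replicates 1 and 2, a close pair, recur among those that decided a call. St6gal1 lost its call when the array of 6 h replicates 1 or 2 was left out (differences 1.52 to 2.10 over the 10 fits). The call of Susd3 did not hold without 24 h replicates 2, 4 or 5 or 6 h replicates 1, 2 or 4 (1.42 to 2.07). For Galnt14, the call was lost without 24 h replicate 2 or 6 h replicates 1 or 2 (1.16 to 1.88). The call of Mrc1 did not hold without 24 h replicates 4 or 5 or 6 h replicates 1 or 2 (-3.35 to -2.26). For Fbp1, the call was lost without 24 h replicates 1, 4 or 5 or 6 h replicates 1 or 2 (-2.78 to -2.32). The call of Ccl3 did not hold without 24 h replicates 2 or 3 or 6 h replicates 1 or 2 (-2.57 to -2.04). For Edn1, the call was lost without 24 h replicate 2 or 6 h replicates 1, 2, 4 or 5 (-3.00 to -1.76). The call of Calhm6 did not hold without 24 h replicates 2, 4 or 5 or 6 h replicates 1, 2 or 5 (-2.96 to -1.65). For Flt1, the call was lost without 24 h replicates 1 or 3 or 6 h replicates 1, 2 or 3 (-1.95 to -1.42). The call of Dusp2 did not hold without 6 h replicates 1 or 2 (-2.23 to -1.30). For Cxcl9, the call was lost without 24 h replicates 2, 4 or 5 or 6 h replicates 1, 2, 4 or 5 (-1.36 to -0.81). The call of Il23a did not hold without 24 h replicate 4 or 6 h replicates 1 or 4 (-0.95 to -0.61). For Dusp4, the call was lost without 24 h replicates 1, 3 or 5 or 6 h replicates 1, 2 or 4 (0.92 to 1.12). The call of Stat4 did not hold without 24 h replicates 1, 2, 3 or 5 or 6 h replicates 1, 3, 4 or 5 (1.07 to 1.80). For Il2ra, the call was lost without 24 h replicates 1, 4 or 5 (0.62 to 1.05). The call of Bcl2l1 did not hold without 24 h replicates 1, 2 or 3 or 6 h replicates 1, 2, 4 or 5 (-0.66 to -0.41). For Cd36, the call was lost without 24 h replicates 1, 2 or 3 or 6 h replicates 1, 2, 4 or 5 (-1.24 to -0.77). The call of Pfkp did not hold without 6 h replicates 1 or 2 (-0.74 to -0.50). For Sdhc, the call was lost without 24 h replicate 4 or 6 h replicates 1, 2 or 3 (-0.49 to -0.29). The call of Fdps did not hold without 24 h replicates 1, 3, 4 or 5 or 6 h replicates 3 or 5 (-0.99 to -0.58). For Pdia6, the call was lost without 24 h replicate 4 or 6 h replicates 1 or 2 (-1.03 to -0.74). The call of Pdia4 did not hold without 24 h replicate 2 or 6 h replicates 1 or 2 (-0.70 to -0.52).

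**Figure D1:**
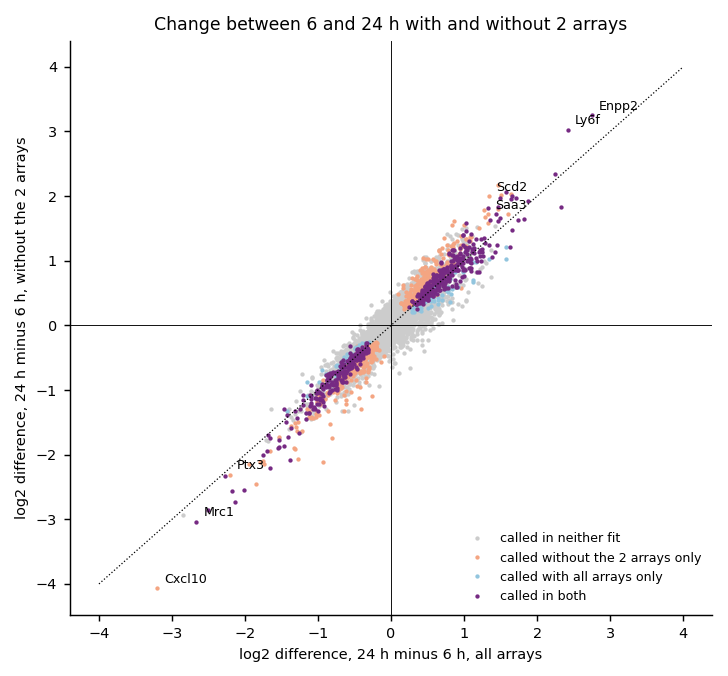
Each point is 1 of 11263 genes, with its log2 difference, 24 h minus 6 h, from all arrays (horizontal) and without the 2 arrays that stood apart (vertical); the dotted line marks equal values and colours show in which fit the gene was called. Cxcl10 lies at -3.21 and -4.07 and was called in the fit without the 2 arrays, while Enpp2 and Ly6f were called in both.

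Ccl3 and Cxcl9 were lower at 24 h in both fits, and Cxcl10 without the 2 arrays. Of 21 measured chemokines 2 were lower (9.52%) and 0 higher with all arrays, against 2.18% and 3.29% over all genes. Without the 2 arrays 3 were lower (14.3%) and 1 higher (4.76%), against 4.13% and 5.38%. Their median difference was -0.36 with all arrays and -0.18 without the 2. Ccl3, a chemokine that attracts monocytes and T cells, read 1.22, 0.15, 0.64, 1.64 and 1.94 in replicates 1 to 5 at 24 h, against 3.96, 4.04, 2.21, 3.53 and 3.25 at 6 h. Every 24 h array lay below every 6 h array, the arrays labelled 24 h replicate 2 and 6 h replicate 3 included. Ccl3 was 4.85-fold lower at 24 h (log2 difference -2.28 ± 0.60 SE, adjusted p = 0.0245) and 5.04-fold lower without the 2 arrays (adjusted p = 0.0242). Cxcl10, an interferon-induced ligand of CXCR3, read 4.20, -1.21, 4.45, 1.26 and 1.51 at 24 h, against 8.27, 8.58, -1.45, 5.42 and 5.44 at 6 h. The 2 arrays that stood apart were the lowest of their groups, and the other 4 arrays at 24 h lay below the other 4 at 6 h. With all arrays the Cxcl10 difference of -3.21 ± 1.21 did not pass the test (adjusted p = 0.134); without the 2 arrays it was -4.07 ± 0.77, a 16.8-fold lower level (adjusted p = 0.00101). Cxcl9, the other interferon-induced CXCR3 ligand measured, was lower by both fits, with differences of -0.99 ± 0.29 (adjusted p = 0.0469) and -1.21 ± 0.22 (adjusted p = 0.000733), but it was well above background on 2 of 5 arrays at 24 h and 4 of 5 at 6 h. Ccl4, close kin of Ccl3, had differences of -2.85 and -2.94 that passed in neither fit.

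Of the neutrophil-attracting CXC chemokines, Cxcl5 was higher at 24 h without the 2 arrays (1.18 ± 0.31, adjusted p = 0.0156) and not called with all arrays (0.95 ± 0.54, adjusted p = 0.371). Cxcl3 read 6.97, 3.46, 6.36, 7.80 and 7.79 at 24 h, against 6.62, 6.53, 3.82, 6.72 and 7.48 at 6 h, and its difference of 0.24 ± 0.65 passed in neither fit. Cxcl1 and Cxcl2 had differences of -0.90 and -0.50 with all arrays, not called.

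Among 18 measured genes listed as proinflammatory cytokines 3 were lower at 24 h with all arrays (16.7%, against 2.18% over all genes). They were Edn1, Il27 and Il23a. Edn1 is counted in both fits but does not encode a cytokine. Without the 2 arrays 6 were lower (33.3%, against 4.13%). The number higher was 0 in either fit, and median differences were -0.38 and -0.52. Edn1, which encodes the precursor of the vasoconstrictor peptide endothelin-1, read 1.75, -0.57, 1.65, 1.33 and 1.42 at 24 h, against 4.66, 4.77, 0.04, 3.34 and 3.68 at 6 h. Outside the 2 arrays the groups did not overlap, and the difference was -2.18 ± 0.59 (adjusted p = 0.0285) and -2.57 ± 0.37 without them (adjusted p = 5.28e-05). Il27, the p28 subunit of interleukin 27, read 0.68, 0.49, 0.74, 0.65 and 0.66 at 24 h, against 1.51, 1.55, 0.82, 0.94 and 1.35 at 6 h. Its difference was small but the groups did not overlap (-0.59 ± 0.13, adjusted p = 0.00709; two-sided exact permutation p = 0.00794, the lowest possible with 5 arrays against 5). Il23a, the p19 subunit of interleukin 23, was well above background on 0 of 5 arrays at 24 h and 4 of 5 at 6 h, and was at least 1.46-fold lower at 24 h (at least 1.70-fold without the 2 arrays; adjusted p = 0.0214). Such bounds, given for genes not well above background on any array of a group, set the mean Cy5 signal of the brighter group against the higher, array by array, of the dim probe's own signal and the lowest signal that was well above background. In the fit without the 2 arrays, Il27 had -0.65 ± 0.13 (adjusted p = 0.00186).

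Tnf and Il6 were called lower without the 2 arrays. Tnf, an early NF-kB target, read 2.86, 0.05, 2.98, 2.39 and 2.19 at 24 h, against 4.23, 4.21, 0.72, 3.92 and 4.25 at 6 h. Its difference was -1.37 ± 0.54 with all arrays (adjusted p = 0.152) and -1.55 ± 0.31 without the 2 (adjusted p = 0.00178). Il6 read 6.13, 2.45, 5.85, 6.54 and 6.54 at 24 h, against 7.59, 7.57, -0.65, 7.19 and 7.88 at 6 h. Apart from the 2 arrays, each 24 h array lay below each 6 h array, and the difference without them was -1.29 ± 0.38 (adjusted p = 0.0309), against -0.41 ± 1.04 with all arrays (adjusted p = 0.885). Il1b, the precursor of interleukin 1 beta, read 7.02, 2.10, 6.65, 6.86 and 6.98 at 24 h, against 7.02, 7.05, 3.18, 6.87 and 7.27 at 6 h. Its groups overlapped, with differences of -0.36 ± 0.91 and -0.18 ± 0.72, and Il1a had -0.68 ± 0.60 and -0.47 ± 0.27, not called in either fit. Ifnb1 (-0.56 ± 0.55), Ptgs2 (-0.99 ± 0.69) and Nos2 (-0.31 ± 0.75), which make interferon-beta, prostaglandins and nitric oxide, were not called either.

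**Figure D2:**
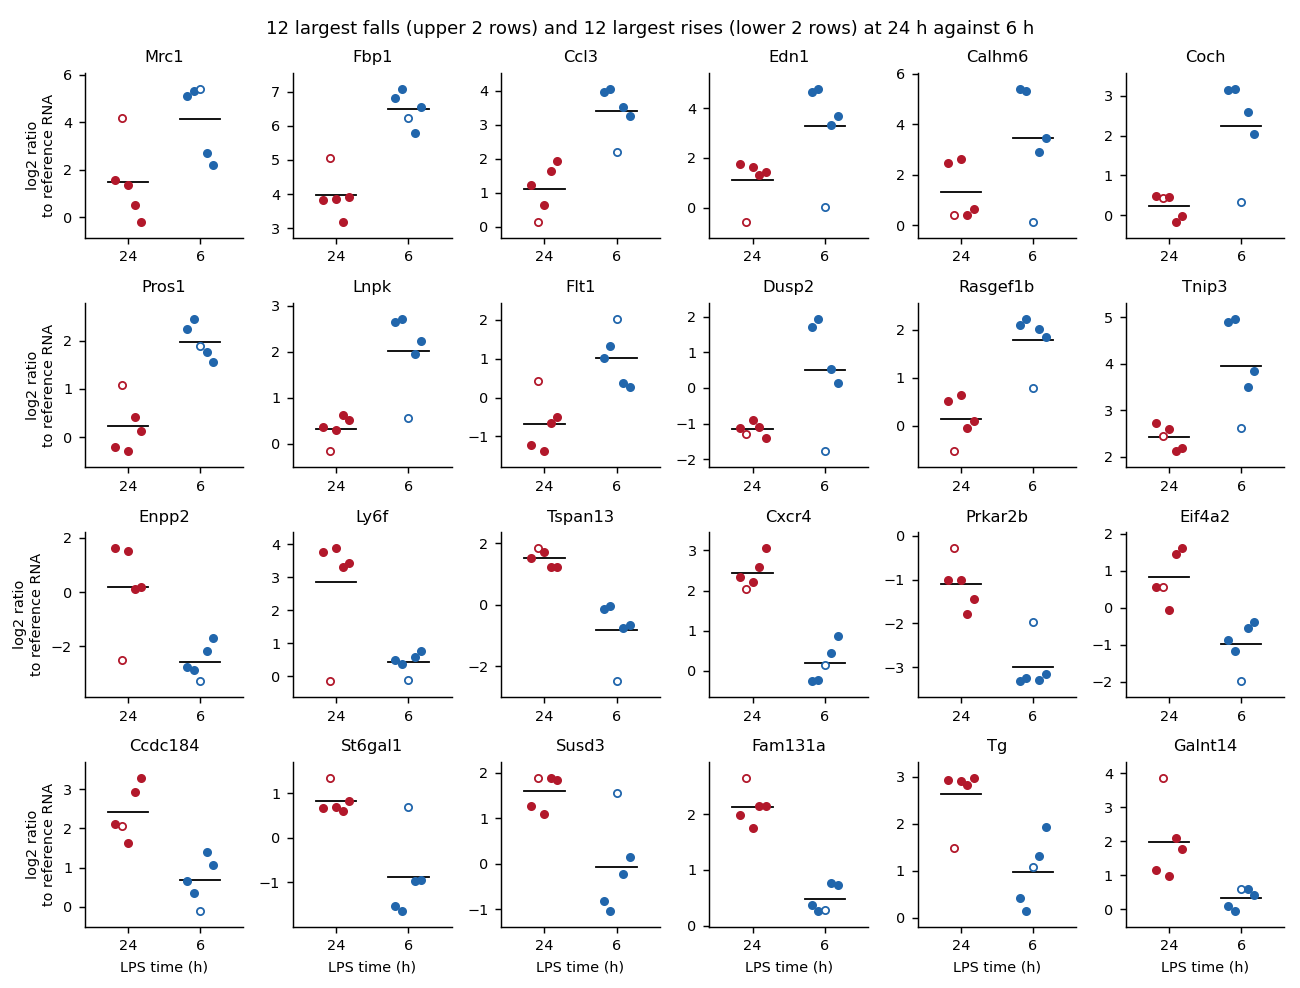
The log2 ratio to reference RNA (vertical) is plotted for each control array at 24 h (red) and 6 h (blue) of LPS, for the 12 largest falls in the upper rows and the 12 largest rises in the lower rows; open circles are the array labelled 24 h replicate 2 and that labelled 6 h replicate 3, and bars are means of 5 arrays. For Ly6f and Edn1 each open circle is the lowest point of its group, while Ccl3, Fbp1, Tspan13 and Cxcr4 separate with all 10 arrays.

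Members of the interferon-stimulated gene list were called lower at 24 h in the fit without the 2 arrays and not with all arrays; Cxcl9 is counted among the chemokines. Of 38 measured genes of type I interferons and their targets, 12 were lower (31.6%, against 4.13% over all genes) and 0 higher without the 2 arrays. With all arrays 0 passed in either direction, 32 of 38 differences were negative and the median was -0.53, against -0.02 over all genes. Among 14 interferon-inducible GTPases, which act against intracellular microbes, 2 were lower without the 2 arrays (14.3%, against 4.13% over all genes). They were Iigp1 (-2.15) and Tgtp1 (-1.52). The list's median was -0.90 in that fit and -0.63 with all arrays, where 0 were lower. Ifi47, an interferon-inducible GTPase counted in the first list, read 4.45, 1.99, 4.25, 4.06 and 3.73 at 24 h, against 5.55, 5.40, 1.94, 5.37 and 5.86 at 6 h. Only the 2 arrays made its groups overlap, and without them the difference was -1.42 ± 0.22 (adjusted p = 9.05e-05), against -1.13 ± 0.49 with all arrays (adjusted p = 0.208). The RNA sensor Ifih1 (MDA5) and the RNA-activated kinase Eif2ak2 (PKR) had differences of -1.63 ± 0.44 (adjusted p = 0.018) and -1.18 ± 0.27 (adjusted p = 0.00573) without the 2 arrays. Irf7, which sustains interferon transcription, read 3.96, -1.61, 4.10, 1.92 and 2.46 at 24 h, against 3.43, 3.52, -1.79, 2.37 and 2.30 at 6 h, a difference of 0.20 in both fits. Bst2 and Ly6e had positive differences of 0.64 and 0.59 with all arrays, not called. With all arrays, Ifih1 had -1.22 ± 0.62 (adjusted p = 0.296), Eif2ak2 had -1.01 ± 0.35 (adjusted p = 0.0925), Iigp1 had -1.95 ± 0.80 (adjusted p = 0.172) and Tgtp1 had -0.83 ± 0.71 (adjusted p = 0.587).

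Promoters were read for the letters that the factors of this response are known to bind. A promoter here is the 300-base RefSeq sequence that spans a gene's start, and a gene may have several. GAAA followed after any 2 bases by GAAA, the core of the interferon-stimulated response element bound by interferon regulatory factors and ISGF3, stood on either strand in a promoter of 28 of 379 genes lower at 24 h without the 2 arrays (7.39%), 14 of 491 higher (2.85%) and 358 of 9080 tested genes with a promoter (3.94%). With all arrays it was in 11 of 204 lower (5.39%) and 6 of 305 higher genes (1.97%). The list of interferon-stimulated genes held it in 15 of 29 (51.7%). A kappaB motif, GGGA and TTCC with any 2 bases between, was in 2.37% of lower, 1.83% of higher and 1.80% of all genes without the 2 arrays. The AP-1 motif TGANTCA was in 8.71%, 9.16% and 6.94%, and the cAMP response element TGACGTCA in 4.22%, 1.83% and 3.30%. A match is a description of the letters, and these shares were not tested. Promoters of 5 genes called lower in at least 1 fit, and of Saa3, called higher without the 2 arrays, are printed because they hold the interferon-stimulated response element letters; they were chosen after their values were seen. They are given 5′ to 3′ along the gene, from RefSeq on GRCm38.p6, with capitals on every match to any of the 4 motifs, on either strand.
Cxcl10 (chr5:92348840-92349139, minus strand): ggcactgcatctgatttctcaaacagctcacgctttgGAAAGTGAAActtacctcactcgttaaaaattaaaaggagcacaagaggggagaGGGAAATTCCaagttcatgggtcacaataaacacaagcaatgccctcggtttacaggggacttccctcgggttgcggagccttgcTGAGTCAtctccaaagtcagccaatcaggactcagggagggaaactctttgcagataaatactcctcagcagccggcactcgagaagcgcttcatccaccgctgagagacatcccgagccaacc
Edn1 (chr13:42301226-42301525, plus strand): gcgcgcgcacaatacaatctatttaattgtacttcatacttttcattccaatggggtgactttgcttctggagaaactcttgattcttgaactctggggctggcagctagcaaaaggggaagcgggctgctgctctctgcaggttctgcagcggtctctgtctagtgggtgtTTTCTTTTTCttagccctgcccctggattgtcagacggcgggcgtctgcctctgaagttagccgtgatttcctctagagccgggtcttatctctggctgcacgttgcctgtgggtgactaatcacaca
Calhm6 (chr10:34127923-34128222, minus strand): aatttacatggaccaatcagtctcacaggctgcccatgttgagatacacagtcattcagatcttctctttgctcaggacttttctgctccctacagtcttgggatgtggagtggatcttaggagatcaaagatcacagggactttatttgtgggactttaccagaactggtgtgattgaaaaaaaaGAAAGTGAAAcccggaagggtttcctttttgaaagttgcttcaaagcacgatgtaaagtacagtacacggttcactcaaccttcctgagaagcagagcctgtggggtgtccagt
Ifih1 (chr2:62646206-62646505, minus strand): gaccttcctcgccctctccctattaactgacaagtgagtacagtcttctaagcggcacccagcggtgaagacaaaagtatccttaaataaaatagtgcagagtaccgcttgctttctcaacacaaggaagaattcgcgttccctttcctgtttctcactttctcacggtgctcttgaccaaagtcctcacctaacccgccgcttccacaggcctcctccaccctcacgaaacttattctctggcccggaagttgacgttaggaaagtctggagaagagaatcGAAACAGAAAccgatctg
Eif2ak2 (chr17:78882523-78882822, minus strand): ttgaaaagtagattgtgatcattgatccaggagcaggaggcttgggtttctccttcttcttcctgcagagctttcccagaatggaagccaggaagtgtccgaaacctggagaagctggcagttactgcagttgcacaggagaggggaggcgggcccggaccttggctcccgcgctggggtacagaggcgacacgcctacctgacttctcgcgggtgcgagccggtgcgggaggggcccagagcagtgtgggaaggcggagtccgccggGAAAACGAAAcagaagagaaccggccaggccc
Saa3 (chr7:46715627-46715926, minus strand): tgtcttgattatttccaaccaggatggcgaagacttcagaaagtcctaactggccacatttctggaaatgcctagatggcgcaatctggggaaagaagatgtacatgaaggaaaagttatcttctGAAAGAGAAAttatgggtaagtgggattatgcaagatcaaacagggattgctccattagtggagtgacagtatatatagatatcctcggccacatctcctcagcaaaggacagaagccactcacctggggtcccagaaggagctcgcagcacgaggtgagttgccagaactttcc
Of these 6 windows, that of Cxcl10 also holds a kappaB and an AP-1 match.

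**Figure D3:**
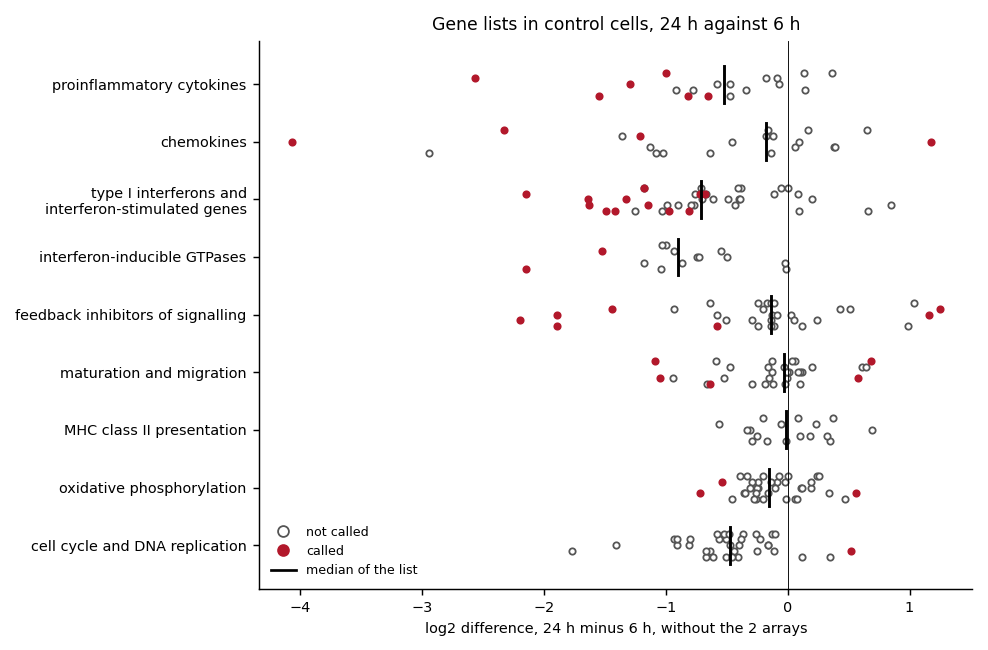
Each point is a gene of the list named at the left, at its log2 difference, 24 h minus 6 h, without the 2 arrays that stood apart; filled points passed an adjusted p of 0.05 and the black bar is the list's median. Interferon-stimulated genes and their GTPases lie mostly left of 0, with medians of -0.72 and -0.90, while MHC class II presentation centres at -0.01.

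Of 31 measured feedback inhibitors, 2 were lower (Dusp2 and Tnip3, 6.45%) and 1 higher (Dusp4, 3.23%) with all arrays, against 2.18% and 3.29% over all genes. Without the 2 arrays 5 were lower (16.1%, against 4.13%) and 2 higher (6.45%, against 5.38%). Dusp2, a phosphatase of MAP kinases, read -1.12, -1.29, -0.89, -1.10 and -1.39 at 24 h, against 1.70, 1.94, -1.78, 0.54 and 0.13 at 6 h. The 24 h arrays lay within a narrow range below every 6 h array except replicate 3, and the difference was -1.66 ± 0.41 (adjusted p = 0.0152) and -2.20 ± 0.30 without the 2 arrays (adjusted p = 3.15e-05). Tnip3, which binds A20 and restrains NF-kB, was 2.92-fold lower at 24 h (adjusted p = 0.00114). Nfkbiz, a nuclear IkB protein, and Zc3h12a, the RNase Regnase-1, were lower without the 2 arrays, at -1.89 ± 0.37 (adjusted p = 0.00146) and -1.44 ± 0.36 (adjusted p = 0.0115). Dusp4, another MAP kinase phosphatase, went the other way: it read 0.88, 0.29, 0.69, 0.35 and 1.09 at 24 h, against -0.50, -0.71, -0.19, -0.23 and -0.18 at 6 h. All 5 of its 24 h arrays lay above all 5 at 6 h (1.02 ± 0.29, adjusted p = 0.0376). Dusp6 was higher without the 2 arrays (1.25 ± 0.31, adjusted p = 0.00996). Tnfaip3 (A20), Nfkbia and Socs3 had differences of -0.52 ± 0.46, 0.21 ± 0.41 and -0.48 ± 0.48 with all arrays, and Zfp36, a protein that speeds decay of cytokine mRNA, had -0.04 ± 0.31; none of the 4 was called in either fit. When the 2 arrays were left out, Tnip3 had -1.89 ± 0.24 (adjusted p = 1.3e-05) and Dusp4 had 1.16 ± 0.34 (adjusted p = 0.028). With all arrays, Nfkbiz had -1.33 ± 0.54 (adjusted p = 0.166), Zc3h12a had -1.07 ± 0.43 (adjusted p = 0.166) and Dusp6 had 0.76 ± 0.34 (adjusted p = 0.218).

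Of 23 measured NF-kB, IRF, STAT and C/EBP transcription factors 1 was lower and 1 higher with all arrays (4.35% each, against 2.18% and 3.29% over all genes). Cebpd read -2.27, -1.71, -2.53, -1.86 and -1.77 at 24 h, against -0.48, -0.35, -1, -0.83 and -1.02 at 6 h. Every 24 h array lay below every 6 h array, and the difference of -1.29 ± 0.16 had an adjusted p of 2.17e-05. Stat4, which transmits interleukin 12 signals, was higher with all arrays (1.57 ± 0.47, adjusted p = 0.0475) and not called without the 2 (1.03 ± 0.45, adjusted p = 0.169); the array labelled 6 h replicate 3 read 0.57 and the other 6 h arrays 2.66 to 3.5. Stat5a was lower without the 2 arrays (-0.65 ± 0.19, adjusted p = 0.0263). Irf4 itself, intact in these cells, had differences of -0.17 ± 0.27 and -0.34 ± 0.30. Of 22 immediate-early genes, Nr4a2, an orphan nuclear receptor, was the 1 called with all arrays, and it was higher (1.10 ± 0.24, adjusted p = 0.00662; 4.55%, against 3.29%). Without the 2 arrays Myc was also called, as lower (4.55%, against 4.13%). Myc read -3.58, -2.27, -3.71, -2.96 and -3.21 at 24 h, against -2.66, -2.71, -1.21, -2.45 and -2.60 at 6 h. Its difference with all arrays was -0.82, not called. Fos, Egr1 and Atf3 had differences between -0.14 and -0.02. Without the 2 arrays, Cebpd had -1.44 ± 0.17 (adjusted p = 4.86e-06) and Nr4a2 had 1.03 ± 0.23 (adjusted p = 0.00488). With all arrays, Stat5a had -0.30 ± 0.24 (adjusted p = 0.557).

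With all arrays the most negative difference among called genes was that of Mrc1, the mannose receptor CD206, which takes up glycoproteins. Mrc1 read 1.56, 4.16, 1.34, 0.50 and -0.20 at 24 h, against 5.12, 5.31, 5.39, 2.72 and 2.20 at 6 h. Replicates 4 and 5 were lower than the others at both times, and the array labelled 24 h replicate 2 lay among the 6 h arrays. The difference was -2.67 ± 0.71 (adjusted p = 0.0259) and -3.04 ± 0.69 without the 2 arrays (adjusted p = 0.00496); the probe was well above background on 3 of 5 arrays at 24 h and on all 5 at 6 h. Fbp1, the gluconeogenic fructose-1,6-bisphosphatase, read 3.82, 5.05, 3.86, 3.19 and 3.93 at 24 h, against 6.80, 7.07, 6.23, 5.78 and 6.54 at 6 h. Its groups did not overlap, at a 5.71-fold lower level at 24 h (adjusted p = 0.027). Pros1, the anticoagulant protein S and a ligand of TAM receptors, read -0.21, 1.08, -0.30, 0.42 and 0.13 at 24 h, against 2.24, 2.46, 1.90, 1.77 and 1.55 at 6 h, again without overlap (-1.76 ± 0.23, adjusted p = 3.03e-05). The unstimulated means of these 3 genes were 5.23, 6.67 and 1.95, their 6 h means 4.15, 6.48 and 1.99, and their 24 h means 1.47, 3.97 and 0.22. In bulk RNA, fewer cells of a type and less RNA per cell cannot be told apart. In the fit without the 2 arrays, Fbp1 had -2.85 ± 0.77 (adjusted p = 0.0185) and Pros1 had -2 ± 0.22 (adjusted p = 2.5e-06).

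Other large falls were in genes with varied roles. Calhm6, a channel-family protein, fell by 2.14 (adjusted p = 0.0386), Lnpk, which shapes junctions of the endoplasmic reticulum, by 1.70 (adjusted p = 0.00107), and Rasgef1b, an exchange factor for Ras-like GTPases, by 1.66 (adjusted p = 0.00914). Flt1, a receptor of vascular endothelial growth factor, had -1.68 ± 0.46 (adjusted p = 0.0283). Coch, which encodes the extracellular protein cochlin, was well above background on 0 of 5 arrays at 24 h and 4 of 5 at 6 h, and was at least 2.93-fold lower at 24 h (at least 3.89-fold without the 2 arrays; adjusted p = 0.000302). Among 16 scavenger and lectin receptors 2 were lower with all arrays (12.5%, against 2.18% over all genes). They were Mrc1 and Cd36, a receptor for lipids that had -0.99 ± 0.29 (adjusted p = 0.0427, and 0.0647 without the 2 arrays). Fcrls was lower without the 2 arrays (-1.73 ± 0.54, adjusted p = 0.0429) and Clec4d higher (1.02 ± 0.26, adjusted p = 0.0123). Of 28 secreted effectors and acute-phase proteins 0 were called with all arrays, and without the 2 Ptx3 (-2.31), Serpina3f (-1.91) and Mmp13 (-1.95) were lower. When the 2 arrays were left out, Calhm6 had -2.74 ± 0.47 (adjusted p = 0.000339), Lnpk had -1.94 ± 0.25 (adjusted p = 1.77e-05), Rasgef1b had -1.74 ± 0.40 (adjusted p = 0.00513) and Flt1 had -1.70 ± 0.47 (adjusted p = 0.0231). With all arrays, Fcrls had -1.54 ± 0.49 (adjusted p = 0.0676), Clec4d had 0.51 ± 0.47 (adjusted p = 0.621), Ptx3 had -2.21 ± 0.72 (adjusted p = 0.0739), Serpina3f had -1.32 ± 0.45 (adjusted p = 0.0856) and Mmp13 had -1.66 ± 0.90 (adjusted p = 0.332).

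Cxcr4, the receptor for CXCL12, was higher at 24 h than at 6 h in both fits. Cxcr4 read 2.34, 2.03, 2.21, 2.58 and 3.05 at 24 h, against -0.25, -0.23, 0.15, 0.44 and 0.87 at 6 h. The groups were apart by more than 1 log2 unit between their nearest arrays, and the level at 24 h was 4.76-fold higher (2.25 ± 0.33, adjusted p = 0.00011; 5.07-fold without the 2 arrays). Its unstimulated mean was 2.04, so that the 6 h arrays were the low ones (24 h against unstimulated 0.40, adjusted p = 0.479). S1pr1, the sphingosine-1-phosphate receptor that guides exit from tissue, was well above background on all 5 arrays at 24 h and 0 of 5 at 6 h, and was at least 1.6-fold higher at 24 h (at least 1.52-fold without the 2 arrays; adjusted p = 0.00415). These were the 2 of 16 chemoattractant receptors that were called (12.5% higher with all arrays, against 3.29% over all genes). Ccr7, the receptor for lymph node homing, read 5.19, 4.84, 5.08, 4.97 and 4.84 at 24 h, against 5.00, 5.11, 3.55, 4.72 and 5.26 at 6 h, and its difference of 0.25 ± 0.51 was not called.

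Enpp2 and Ly6f had the largest differences among the named rises. Ly6f, a member of the Ly6 family of surface proteins, read 3.77, -0.15, 3.87, 3.29 and 3.42 at 24 h, against 0.50, 0.38, -0.13, 0.58 and 0.77 at 6 h. Replicate 2 was at the unstimulated level (mean -0.22) and the other 24 h arrays lay well above all 6 h arrays: the level was 5.35-fold higher with all arrays (adjusted p = 0.00136) and 8.17-fold without the 2 (adjusted p = 8.74e-11). Enpp2 makes autotaxin, the enzyme that forms lysophosphatidic acid. It read 1.61, -2.51, 1.53, 0.12 and 0.17 at 24 h, against -2.78, -2.88, -3.28, -2.19 and -1.71 at 6 h. Replicates 1 and 3 were higher than 4 and 5 at 24 h, and the difference was 2.75 ± 0.54 (adjusted p = 0.00262) and 3.25 ± 0.45 without the 2 arrays (adjusted p = 2.89e-05). Ly6f and Enpp2 did not differ between 6 h and unstimulated cells by the test (0.64, adjusted p = 0.413, and 0.43, adjusted p = 0.703) and were higher at 24 h than unstimulated (3.06, adjusted p = 8.02e-05, and 3.18, adjusted p = 0.000454).

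Several other rises were in genes that were lower at 6 h than in unstimulated cells. Tspan13, a tetraspanin, read 1.54, 1.84, 1.73, 1.22 and 1.22 at 24 h, against -0.13, -0.05, -2.48, -0.76 and -0.67 at 6 h, with no overlap (2.33 ± 0.32, adjusted p = 7.1e-05). Prkar2b, a regulatory subunit of protein kinase A, read -1, -0.29, -1.02, -1.79 and -1.45 at 24 h, against -3.31, -3.23, -1.97, -3.29 and -3.16 at 6 h, again with no overlap (1.88 ± 0.25, adjusted p = 3.54e-05). At 6 h both were lower than in unstimulated cells (-1.17, adjusted p = 0.0156, and -1.22, adjusted p = 0.0019), as were St6gal1, a sialyltransferase (-1.69, adjusted p = 0.0078), and Susd3 (-1.91, adjusted p = 0.00543). St6gal1 and Susd3 were 3.26- and 3.17-fold higher at 24 h than at 6 h (adjusted p = 0.0138 and 0.0264). In both, the array labelled 6 h replicate 3 lay among the 24 h arrays. Probes of these genes differed in size with all arrays. For St6gal1 the log2 difference was 1.71 on the probe used and 0.31 on the other passing probe, which did not match the 3.26-fold rise. For Susd3 it was 1.66 and 1.06. Eif4a2, an RNA helicase of translation initiation, was 3.53-fold higher, Ccdc184 3.33-fold, Fam131a 3.15-fold, and Tg, thyroglobulin, 3.12-fold, with adjusted p-values of 0.00215, 0.00125, 3.82e-06 and 0.00828. At 6 h Fam131a was lower than in unstimulated cells (-0.77, adjusted p = 0.00651). Eif4a2 (-0.51), Ccdc184 (0.30) and Tg (-0.65) were not called at 6 h against unstimulated cells. Ccdc184 and Eif4a2 were higher at 24 h than unstimulated (2.03, adjusted p = 0.000178, and 1.31, adjusted p = 0.0144). Galnt14, a GalNAc transferase, was 3.1-fold higher (adjusted p = 0.0208) and well above background on 3 of 5 arrays at 6 h. Without the 2 arrays, Tspan13 had 1.83 ± 0.25 (adjusted p = 3.33e-05), Prkar2b had 1.93 ± 0.19 (adjusted p = 5.26e-07), St6gal1 had 1.97 ± 0.40 (adjusted p = 0.00222) and Susd3 had 2.00 ± 0.45 (adjusted p = 0.00461). In the same fit, Eif4a2 had 1.64 ± 0.37 (adjusted p = 0.0051), Ccdc184 had 1.63 ± 0.34 (adjusted p = 0.00269), Fam131a had 1.48 ± 0.19 (adjusted p = 1.75e-05), Tg had 1.95 ± 0.39 (adjusted p = 0.00182) and Galnt14 had 1.22 ± 0.38 (adjusted p = 0.0429).

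Il2ra and Socs2 were higher at 24 h among maturation genes, and Bcl2l1 was lower. Of 31 measured maturation and migration genes 2 were higher (6.45%) and 1 lower (3.23%) with all arrays, against 3.29% and 2.18% over all genes. Without the 2 arrays 2 were higher (6.45%) and 3 lower (9.68%), against 5.38% and 4.13%. Il2ra, the interleukin 2 receptor alpha chain, read 2.92, 2.60, 2.64, 3.14 and 2.92 at 24 h, against 2.32, 2.14, 0.63, 2.22 and 2.22 at 6 h. Its 24 h arrays all lay above its 6 h arrays (0.94 ± 0.26, adjusted p = 0.0283), and its unstimulated mean of 0.62 was below both. Socs2, a cytokine signalling inhibitor, was likewise higher without overlap (0.75 ± 0.18, adjusted p = 0.0107). Bcl2l1, which encodes the survival protein Bcl-xL, was lower (-0.54 ± 0.16, adjusted p = 0.0486), and the costimulatory ligand Icosl and the actin bundler Fscn1 were lower without the 2 arrays (-1.05 and -1.09, adjusted p = 0.0386 and 0.0188). Cd80, Cd86 and Cd83 had differences of 0.05 ± 0.35, 0.31 ± 0.47 and 0.32 ± 0.35 and were called in neither fit. Of 17 genes of MHC class II presentation and of 16 of class I, 0 were called in either direction in either fit, with medians of -0.05 and 0.07. H2-Ab1, the MHC class II beta chain, read 3.95, 3.43, 3.91, 3.65 and 3.6 at 24 h, against 3.69, 3.76, 3.17, 3.45 and 3.78 at 6 h, and its probes disagreed in sign. The difference of 0.13 ± 0.12 was within the spread of the arrays. In the fit without the 2 arrays, Il2ra had 0.68 ± 0.21 (adjusted p = 0.0429), Socs2 had 0.58 ± 0.17 (adjusted p = 0.0321) and Bcl2l1 had -0.64 ± 0.17 (adjusted p = 0.0154). With all arrays, Icosl had -0.74 ± 0.30 (adjusted p = 0.172) and Fscn1 had -0.26 ± 0.45 (adjusted p = 0.828).

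Tlr4, the receptor for LPS, was higher at 24 h without the 2 arrays. It read 1.12, 0.93, 0.87, 1.76 and 2.02 at 24 h, against 0.12, 0.05, 1.56, 0.62 and 0.81 at 6 h, a 2.06-fold higher level without the 2 arrays (Tlr4 adjusted p = 0.0058; 0.102 with all arrays). It was the 1 called of 24 genes on the pattern recognition list without the 2 arrays (4.17% higher, against 5.38% over all genes). That list does not hold the RNA sensor Ifih1, which was called lower in the same fit. Cd14, the co-receptor of Tlr4, had 0.47 ± 0.62 and, without the 2 arrays, 0.97 ± 0.45, not called. Among acute-phase genes Saa3, serum amyloid A3, read 5.02, -2.78, 4.85, 3.25 and 3.04 at 24 h, against 3.17, 3.48, -2.53, 0.88 and 1.75 at 6 h. It was higher without the 2 arrays (1.72 ± 0.47, adjusted p = 0.0186), with overlap between replicates 4 and 5 at 24 h and replicates 1 and 2 at 6 h, and thrombospondin 1, Thbs1, had 1.79 ± 0.55 (adjusted p = 0.0387). With all arrays, Saa3 had 1.33 ± 1.00 (adjusted p = 0.525) and Thbs1 had 1.27 ± 0.55 (adjusted p = 0.197).

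**Figure D4:**
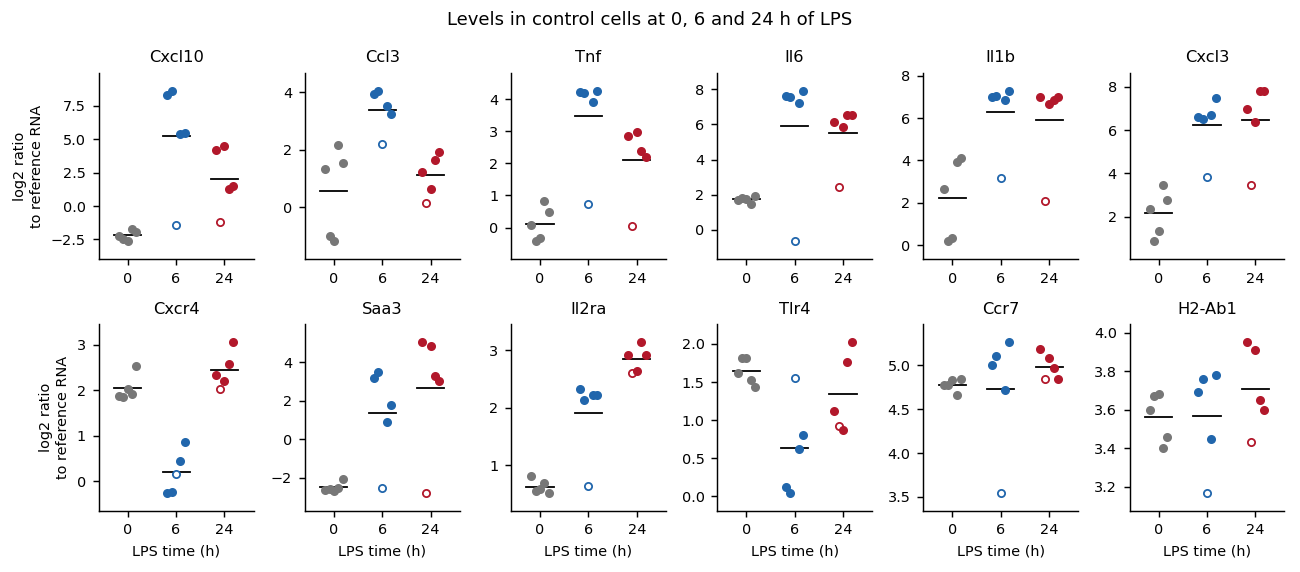
The log2 ratio to reference RNA (vertical) is shown per array at 0 (grey), 6 (blue) and 24 h (red) of LPS in control cells for 12 genes; bars are means of 5 arrays and open circles the array labelled 6 h replicate 3 and that labelled 24 h replicate 2. Cxcl10 and Ccl3 peak at 6 h, Il1b and Cxcl3 are similar at 6 and 24 h, Cxcr4 and Tlr4 are lowest at 6 h, and Il2ra is highest at 24 h.

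Of 36 oxidative phosphorylation genes 4 were lower (11.1%, against 2.18% over all genes) and 0 higher with all arrays. Of their differences 27 of 36 were negative, with a median of -0.28. Without the 2 arrays 2 were lower (5.56%, against 4.13%) and 1 higher (2.78%, against 5.38%), with a median of -0.15. Cycs, cytochrome c, read -0.02, -0.47, -0.02, 0.09 and -0.06 at 24 h, against 0.70, 0.71, 0.64, 0.65 and 0.83 at 6 h, without overlap (-0.80 ± 0.17, adjusted p = 0.00415). Atp5o, a subunit of ATP synthase, had -0.66 ± 0.15 (adjusted p = 0.00728), and Ndufs7, of complex I, was higher without the 2 arrays (0.56 ± 0.09, adjusted p = 0.000135). In cholesterol synthesis 2 of 23 genes were lower in both fits (8.7%, against 2.18% and 4.13% over all genes). They were Hmgcs1 (-0.87 ± 0.19, adjusted p = 0.00597) and Fdps (-0.81 ± 0.23, adjusted p = 0.0384). Another passing probe of Hmgcs1 had a smaller difference of -0.32 with all arrays. Of 24 glycolysis genes 2 were lower in both fits (8.33%, against 2.18% and 4.13% over all genes). They were Pfkp, a phosphofructokinase (-0.60 ± 0.15 with all arrays, adjusted p = 0.0185), and Fbp1, which runs the opposite reaction. Another passing probe of Pfkp had -0.37. In the list of 19 lipid efflux and LXR target genes Cd36 was the 1 called with all arrays (5.26% lower, against 2.18% over all genes). Without the 2 arrays Ch25h, cholesterol 25-hydroxylase, was lower (-1.51 ± 0.40, adjusted p = 0.0167) and Scd2, a fatty acid desaturase, higher (2.00 ± 0.45, adjusted p = 0.0049). Each was 5.26% of the list, against 4.13% lower and 5.38% higher over all genes. The array labelled 6 h replicate 3 read 0.05 for Scd2, against -5.13 to -4.38 on the other 6 h arrays. When the 2 arrays were left out, Cycs had -0.72 ± 0.18 (adjusted p = 0.0112), Atp5o had -0.54 ± 0.15 (adjusted p = 0.0277), Hmgcs1 had -0.82 ± 0.13 (adjusted p = 0.000159), Fdps had -0.76 ± 0.20 (adjusted p = 0.0135) and Pfkp had -0.71 ± 0.17 (adjusted p = 0.00652). With all arrays, Ndufs7 had 0.35 ± 0.17 (adjusted p = 0.252), Ch25h had -1.32 ± 0.48 (adjusted p = 0.111) and Scd2 had 1.34 ± 0.67 (adjusted p = 0.288).

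In the unfolded protein and integrated stress response 3 of 23 genes were lower (13%) and 1 higher (4.35%) with all arrays, against 2.18% and 3.29% over all genes. Ddit3 (CHOP), a transcription factor of prolonged stress, read 0.66, -0.88, 0.67, 0.11 and 0.54 at 24 h, against -0.74, -0.70, -1.32, -0.77 and -0.58 at 6 h. Apart from 24 h replicate 2 its groups did not overlap, and it was 2.06-fold higher at 24 h (adjusted p = 0.0061). The list's median difference was 0.18, with 15 of 23 differences positive. Without the 2 arrays it was 0.26, and 2 were lower and 2 higher (8.7% each, against 4.13% and 5.38% over all genes). The 3 lower genes act in protein folding in the endoplasmic reticulum: Sdf2l1 had -1.02 ± 0.26 (adjusted p = 0.0184), Pdia6 -0.87 ± 0.22 (adjusted p = 0.0185) and Pdia4 -0.60 ± 0.16 (adjusted p = 0.0259; 0.0779 without the 2 arrays). Rrs1, a ribosome assembly factor, was lower (-0.83 ± 0.18, adjusted p = 0.0061), the 1 of 23 ribosome biogenesis genes called with all arrays (4.35%, against 2.18%). Polr1b, of RNA polymerase I, was also lower without the 2 (-0.50 ± 0.16, adjusted p = 0.0423), where 8.7% of the list was lower, against 4.13%. Of 35 cell cycle and DNA replication genes 0 were called with all arrays, although 30 of 35 differences were negative (median -0.50). Without the 2 arrays E2f1 was higher (0.52 ± 0.15, adjusted p = 0.0309), 2.86% of the list, against 5.38% over all genes. Of 14 heat shock genes, Hspa1a and Dnaja1 were lower without the 2 arrays (-2.10 and -0.60; 14.3%, against 4.13% over all genes) and 0 were called with all arrays. Of 17 iron and metal genes 0 were called in either fit, and of 31 lysosomal genes Neu1 was higher without the 2 arrays (3.23%, against 5.38% over all genes). Without the 2 arrays, Ddit3 had 1.19 ± 0.18 (adjusted p = 8.3e-05), Sdf2l1 had -1 ± 0.30 (adjusted p = 0.0311), Pdia6 had -0.76 ± 0.24 (adjusted p = 0.0452) and Rrs1 had -0.77 ± 0.20 (adjusted p = 0.0145). With all arrays, Polr1b had -0.43 ± 0.14 (adjusted p = 0.0709), E2f1 had 0.26 ± 0.17 (adjusted p = 0.449), Hspa1a had -1.75 ± 0.70 (adjusted p = 0.157), Dnaja1 had -0.40 ± 0.19 (adjusted p = 0.25) and Neu1 had 0.50 ± 0.26 (adjusted p = 0.314).

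Levels at 24 h were also set beside unstimulated cells. For 276 of the 371 genes higher at 24 h (74.4%), the unstimulated mean lay between the 6 h and 24 h means; for 67 it lay below both and for 28 above both. Of the 246 genes lower at 24 h, 142 had an unstimulated mean between those at 6 and 24 h, 58 below both and 46 above both. Without the 2 arrays, 249 of the 465 lower genes (53.5%) had an unstimulated mean below both LPS means, and 170 of the 606 higher genes (28.1%) above both. In that fit it lay between the LPS means for 332 of the higher genes (54.8%) and 169 of the lower genes (36.3%). The 6 h arrays enter both steps, so the step to 6 h and the step to 24 h are not independent, and these counts are a description.

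Sets drawn from the KO arrays alone, which share no array with the control comparison, were described by their control-cell differences. Over all genes 2.18% were lower and 3.29% higher with all arrays, and 4.13% and 5.38% without the 2. Of 750 genes raised at least 2-fold at 6 h in KO cells, 52 were lower and 6 higher at 24 h than at 6 h in control cells (6.93% and 0.80%). Of these genes 531 had negative differences, with a median of -0.31, against -0.02 over all genes. Without the 2 arrays 163 were lower (21.7%) and 15 higher (2%), with a median of -0.45. Of 375 genes lowered at 6 h, 26 were higher (6.93%) and 3 lower (0.8%), with a median of 0.27. Without the 2 arrays 75 were higher (20%) and 3 lower (0.8%), with a median of 0.39. Among 85 genes raised in KO cells at 24 h but not called at 6 h, 79 had positive differences in control cells. With all arrays 11 were called higher (12.9%) and 0 lower, and the median was 0.50. Among 55 lowered at 24 h but not called at 6 h, 48 had negative differences. Of them 4 were called lower (7.27%) and 1 higher (1.82%), with a median of -0.45.

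**Figure D5:**
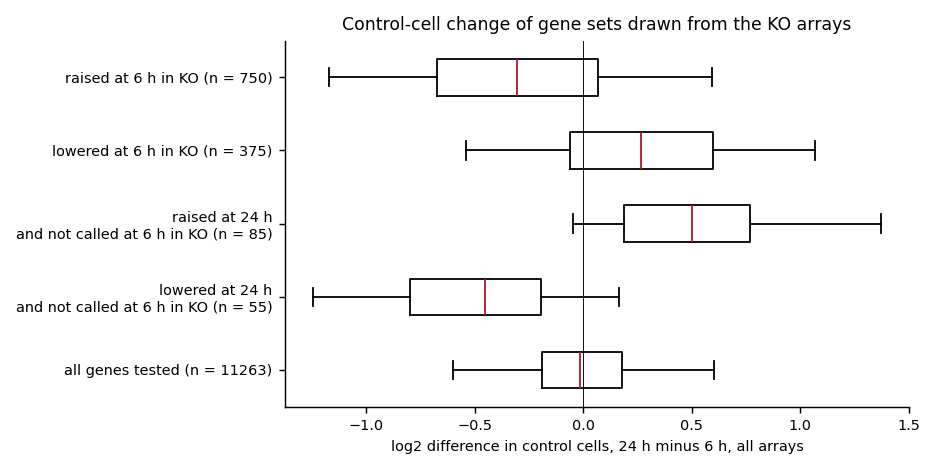
Boxes give the median (red) and quartiles, and whiskers the 5th to 95th percentiles, of the control-cell log2 difference, 24 h minus 6 h with all arrays, for 4 gene sets drawn from the KO arrays and for all 11263 genes. Genes raised at 6 h in KO cells centre at -0.31 and late-raised genes at 0.50.

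In KO cells the same step gave 399 genes higher (3.54%) and 473 lower (4.20%). The step itself differed between KO and control cells for 12 genes (0.107%), and for 23 without the 2 arrays (0.204%). Csf2, which encodes GM-CSF, read -0.02, -0.18, 0.60, 0.89 and 0.99 in KO cells at 24 h, against 2.92, 3.23, 3.82, 2.03 and 1.33 in KO cells at 6 h. In control cells Csf2 was well above background on 1 of 5 arrays at each time, so its fitted difference of steps is no measured size. Ttc39c had -0.44 in KO cells and 1.45 in control cells (difference of the steps -1.89 ± 0.32, adjusted p = 0.0186). Cxcr4, Ly6f, Mrc1, Fbp1 and Ccl3 had steps of 1.19, 2.62, -2.63, -3.94 and -1.10 in KO cells, and their difference of steps was not called. In the fit without the 2 arrays, Ttc39c had 1.25 ± 0.20 (adjusted p = 0.000225).

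The labelled cell type was checked against its markers. Itgax, which encodes CD11c, had a mean level of 3.98 at 24 h and 4.01 at 6 h, and 18 of 20 dendritic cell genes passed the filter on dim probes; Flt3 and Cd209a did not. Zbtb46, a transcription factor of conventional dendritic cells, was lower at 24 h without the 2 arrays (-0.74 ± 0.20, adjusted p = 0.016). Of 19 macrophage markers Mrc1 was the 1 called, in both fits (5.26% lower, against 2.18% and 4.13% over all genes). The mean level of the list ranged over the arrays from 1.6 to 2.95 at 24 h and from 1.94 to 3.31 at 6 h, and its part in the fall of Mrc1 was not tested. Of 12 neutrophil markers 0 were called, with list means of 1.78 to 3.04 at 24 h and 1.89 to 2.60 at 6 h. Among T and NK cell markers 8 of 16 passed the filter and Cd3d, Ncr1, Nkg7 and Prf1 did not; Lck, a kinase of T cell receptor signalling, was lower without the 2 arrays (-1.30 ± 0.15, adjusted p = 3.32e-06). Ms4a1 and Pax5 of B cells, Cpa3 and Mcpt8 of mast cells and basophils, and Klf1 of erythroid cells did not pass the filter, and 0 of the 5, 6 and 6 markers of these lists that did were called in either fit. Runx2 was the 1 of 9 plasmacytoid dendritic cell markers called, higher without the 2 arrays (0.82 ± 0.25, adjusted p = 0.0407). That was 11.1% of the list, against 5.38% over all genes. Of 11 stromal and endothelial markers 0 were called in either fit.
 With all arrays, Zbtb46 had -0.42 ± 0.24 (adjusted p = 0.37), Lck had -1.15 ± 0.36 (adjusted p = 0.0579) and Runx2 had 0.67 ± 0.26 (adjusted p = 0.15).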

How the data were processed

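RNA of 30 samples was measured on 2-colour arrays of 1 design (41174 probes), 5 arrays in each of 6 groups, with the sample in Cy5 and the reference in Cy3 on every array and no dye swap. Spot and background intensity values were deposited as scanned; the file headers name Agilent Feature Extraction 10.7.3.1. The log10 ratio of each spot was made by the same scanner software, per the file headers. Flags per spot are the scanner software's, per the file headers. The deposited table of log2 ratios correlated at 0.999885 to 0.999998 with the values computed here, with column medians of 0.00584 to 0.0183; the submitters' processing notes name limma.

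Here, backgrounds were corrected by normexp (offset 50), with non-uniform local backgrounds set to the array's median, and ratios were normalized by loess within each array (limma 3.58.1, R 4.3.3). The 1639 control spots had weight 0 and were then dropped, and outlier spots were left out. Accessions matched RefSeq (GRCm38.p6) names for 22951 probes, and 18223 were unnamed. A probe passed where every array of at least 1 group had it well above background in the sample channel; the passing probe with the highest mean Cy5 stood for a gene, which left 11263 genes. Means of the 6 groups were fitted over all 30 arrays (24 residual degrees of freedom; 22 without the 2 arrays), with Benjamini-Hochberg adjustment at 0.05. Of the named genes, 38 had several passing probes, and for 1, H2-Ab1, they differed in sign.

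The text names the 12 largest rises and 12 largest falls among called genes whose 24 h arrays without replicate 2 all lay beyond the 6 h arrays without replicate 3, from 33 gene lists up to 4 called members on the more frequent side and up to 2 on the opposite side, a set of 40 fixed genes where measured (37), and up to 5 genes each way with the largest difference of steps between KO and control cells; predicted genes and names made of accessions were passed over. Ccl4, Cxcl1, Cxcl2, Bst2 and Ly6e fall outside this rule and were chosen after their values were seen. The members and lists were chosen with earlier results of these data known. Alternatives covered left-out arrays, slide, scaling, background, filter, probe choice and replicate blocks. Slides 1 and 9 held arrays of both times (2 at 24 h and 1 at 6 h; 1 and 1, the 2 arrays that stood apart): within them, 95% and 90% of the called genes had the same direction, in arrays that were part of the fit that called them.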

Additional observations from a re-analysis of the deposited data

Results flagged for a closer look

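Among 136 named genes in both groups (272 sets of 5 arrays), 54 sets held 1 array whose gap to the nearest other array, as a share of the group's range, passed Dixon's limit of 0.71, which chance passes in about 1 of 20. All 54 were of the 2 arrays that stood apart, 18 of 24 h replicate 2 and 36 of 6 h replicate 3. The remaining arrays of both groups form close pairs, each with a near neighbour, so this limit could hardly flag them. The rate of 1 of 20 assumes independent arrays and does not apply here. The array labelled 24 h replicate 2 was the lowest of its group, with the share of the range in parentheses, for Ly6f (0.856), Tg (0.906), Edn1 (0.819), Tnf (0.73), Il6 (0.831), Il1a (0.817), Il1b (0.925), Ptgs2 (0.921), Hdc (0.801), Oas1g (0.893), Zc3h12a (0.848), Clec4d (0.712), Mmp13 (0.77), Saa3 (0.746), Cycs (0.742) and Lck (0.812). It was the highest for Hmgcs1 (0.72) and Fdps (0.752). The array labelled 6 h replicate 3 was the lowest of its group for Rasgef1b (0.738), Ifnb1 (0.763), Cxcl9 (0.728), Cxcl3 (0.74), Tnf (0.907), Il6 (0.919), Il1a (0.845), Il1b (0.902), Cd80 (0.726), Cd86 (0.83), Irf7 (0.77), Irf8 (0.845), Atf3 (0.862), Hdc (0.893), Cxcl5 (0.885), Oas1g (0.796), Ifi47 (0.875), Tgtp1 (0.76), Nr4a2 (0.733), Stat4 (0.713), Il2ra (0.893), Psme1 (0.759), Serpina3f (0.914), Mmp13 (0.795), Ddit3 (0.743), Lck (0.851), Dcn (0.756) and Ttc39c (0.867). It was the highest for Prkar2b (0.888), Myc (0.827), Calr (0.86), Ndufs7 (0.876), Fdps (0.75), Scd2 (0.855), E2f1 (0.761) and Runx2 (0.779).

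The step between 6 and 24 h differed between KO and control cells by the test of the difference itself in limma (adjusted p between 0.0186 and 0.0373) for 8 named genes. The log2 difference of the steps, KO minus control, was positive for Ndufa5 (0.88), Dynll1 (1.17) and Olfr615 (0.63). It was negative for Csf2 (-2.32), Ttc39c (-1.89), Glcci1 (-1.81), Stk38l (-1.61) and Smurf2 (-0.88). Csf2 was well above background on 1 of 5 control arrays at each time, so its fitted value is no measured difference. When close arrays were averaged, 0 genes were called in this test.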

How the results depend on the processing

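Counts of genes higher and lower at 24 h in control cells, and of genes whose step differed between KO and control cells, were 371, 246 and 12 as reported. They were 606, 465 and 23 without the 2 arrays, 50 and 25 with the 10 control LPS arrays alone (no KO arrays in that fit), 113, 95 and 1 after median centring, 1714, 1558 and 1158 with array weights, 588, 456 and 5673 with slide as a fixed block, 973, 693 and 73 with a term that sets replicates 4 and 5 apart from the rest, 0, 0 and 0 with close arrays averaged, and 3, 2 and 0 with the 2 arrays also left out. The replicate block gave 928, 642 and 58, and 1339, 1129 and 118 without the 2 arrays. Deviations of same-numbered arrays at 24 and 6 h correlated at 0.681, -0.216, -0.183, 0.726 and 0.735 for replicates 1 to 5; numbers 2 and 3 hold the 2 arrays that stood apart, and 1 of 5 arrays correlated best with its own number, so pairing is not established. Leaving out 1 control array gave 216 to 629 higher, 106 to 592 lower and 1 to 30 for the KO and control difference; 216 and 106 came without 6 h replicate 1, 226 and 112 without replicate 2, and 629 and 592 without replicate 3. Backgrounds as scanned gave 144 lower and 7 for the KO and control difference, which was also 4 with the scanner's log ratio, 31 with Cy5 alone and 1 with slide as a random block. The cause of these moves was not tested. Zfp36, at -0.035 as reported, was 0.83 with slide as a fixed block. Of the 51 named genes called, 46 remained called without the 2 arrays (not Stat4, Cd36, Ndufa5, Sdhc and Pdia4), 31 without 6 h replicate 1, 33 without 6 h replicate 2, 29 with slide as a fixed block, 27 after median centring, 15 with the 10 arrays alone, 0 with close arrays averaged and 2 with the 2 arrays also left out. Genes near background (Coch, Il23a, S1pr1) have bounds only.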
